A study of Ovis aries with 42 samples.

Results

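The 38 genes of the unfolded protein response were followed through the livers and gallbladders of CF sheep, which carry the CFTR-/- genotype, and of wild-type (WT) sheep. They were chosen by name, as chaperones and folding enzymes (14 genes), genes of endoplasmic reticulum (ER) degradation (8 genes), genes of the ATF4 arm (7 genes), stress sensors and ER-stress transcription factors (7 genes) and genes of the translocon and ER membrane (2 genes). CRELD2, a chaperone of the list, is not analysed here. The other 37 had a value in both tissues and passed the filter on low counts in both, among 22981 genes of the liver table and 29285 of the gallbladder table, of which 16508 and 18717 were tested.

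The unfolded protein response adjusts a cell's folding capacity to its load of secreted and membrane proteins, and hepatocytes, which make most plasma proteins, keep much of this machinery on at rest. Its sensors sit in the ER membrane: IRE1 (gene ERN1) splices the messenger of the transcription factor XBP1, PERK (gene EIF2AK3) slows translation through eIF2 alpha and so favours the translation of ATF4, and ATF6 is itself cut in the Golgi to release a transcription factor. XBP1 and ATF6 chiefly drive chaperones and the degradation machinery, whereas ATF4 drives amino acid supply, redox genes, DDIT3 and the feedback phosphatase subunit PPP1R15A. Gene roles given below are those known from human and mouse. CFTR is the apical anion channel lost in cystic fibrosis, and in the biliary tree it is found in cholangiocytes and gallbladder epithelium rather than in hepatocytes.

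Bulk RNA from frozen tissue pieces was sequenced, with 2 libraries for each genotype and stage. In liver these were CF and WT at gestation day 50, 65, 80, 100 and 120 (d50 to d120), CF at birth and WT at term, read here as 1 stage, the end of gestation. In gallbladder they were CF at d80, d100 and d120, and WT at d100, d120 and birth. The labels do not describe the CFTR allele. They name the WT term livers as female (replicate 1) and male (replicate 2), so these came from separate animals of different sex. For the other groups they do not say whether the 2 libraries came from separate animals. The p-values measure only the spread between these libraries, and sex was not part of the fit. In 6 of the 12 liver groups and 1 of the 6 gallbladder groups both libraries carried the same stem of the donor number, and 1 donor number was given both for a WT d65 liver and for CF d100 libraries. The 6 chromatin accessibility samples were left out.

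The values were estimated counts per gene, with 29705597 to 56808639 counts per liver library and 32374693 to 54443213 per gallbladder library. Levels are given as CPM, counts relative to a library total adjusted by the trimmed mean of M values (TMM), which are not divided by gene length and so compare libraries and not genes. CFTR RNA in gallbladder at d100 and d120 ranged from 30.1 to 51.8 CPM in CF and from 7.13 to 11.5 CPM in WT. In liver it was 38.4 and 42.2 CPM in CF at birth and 1.81 and 0.846 CPM in WT at term, and it ranged from 0.687 to 17.3 CPM in CF and from 0.902 to 2.82 CPM in WT fetal livers. At d65 both CF livers (1.51 and 0.770 CPM) lay below both WT livers (1.61 and 1.83 CPM). The genotype rests on the labels. The 18 hepatocyte markers summed to 192500 to 326600 CPM in CF and 215400 to 305500 CPM in WT fetal livers, none at 0. Several libraries stood apart from their group. In gallbladder these were CF d80 replicate 1 and WT d120 replicate 1, in which 16253 and 15059 of the 18717 tested genes had a count above 0. In liver these were CF d50 replicate 2, with a summed level of 12 early response genes of tissue handling of 4460 CPM against 311 to 963 CPM in the other fetal livers, and CF birth replicate 2, with the fewest counts and a TMM factor of 2.04. The WT term libraries are numbered apart from all others, and a difference in when they were made cannot be told apart from term or from the WT genotype at that stage.

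Across the 20 fetal liver libraries 11 of the 37 genes had a highest level less than 2 times the lowest, as had 16.6% of all genes tested. The median coefficient of variation was 22.6% over the 37 genes and 34.4% over all genes. HSPA5 (BiP), the main luminal chaperone, ranged from 727 to 1026 CPM with a median of 868 CPM in the 10 CF livers, and from 619 to 940 CPM with a median of 799 CPM in the 10 WT livers. PDIA6, a protein disulfide isomerase, ranged from 464 to 567 CPM in CF and from 445 to 605 CPM in WT. XBP1 ranged from 176 to 242 CPM in CF and from 142 to 226 CPM in WT. For each of these 3 genes the ranges of the 2 genotypes overlapped. A further 8 genes (SDF2L1, SEL1L, DERL3, CHAC1, ERN1, CREB3L1, CREB3L2 and WFS1) varied by more than 4 times or were at 0 somewhere, as did 48.6% of all genes. DERL3, a derlin of the retrotranslocation channel, had 0 to 61 counts. CHAC1, a glutathione-degrading enzyme of the ATF4 arm, had 1 to 226 counts. SEL1L, the adaptor of the HRD1 ubiquitin ligase, had 3 to 616 counts.

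**Figure D1:**
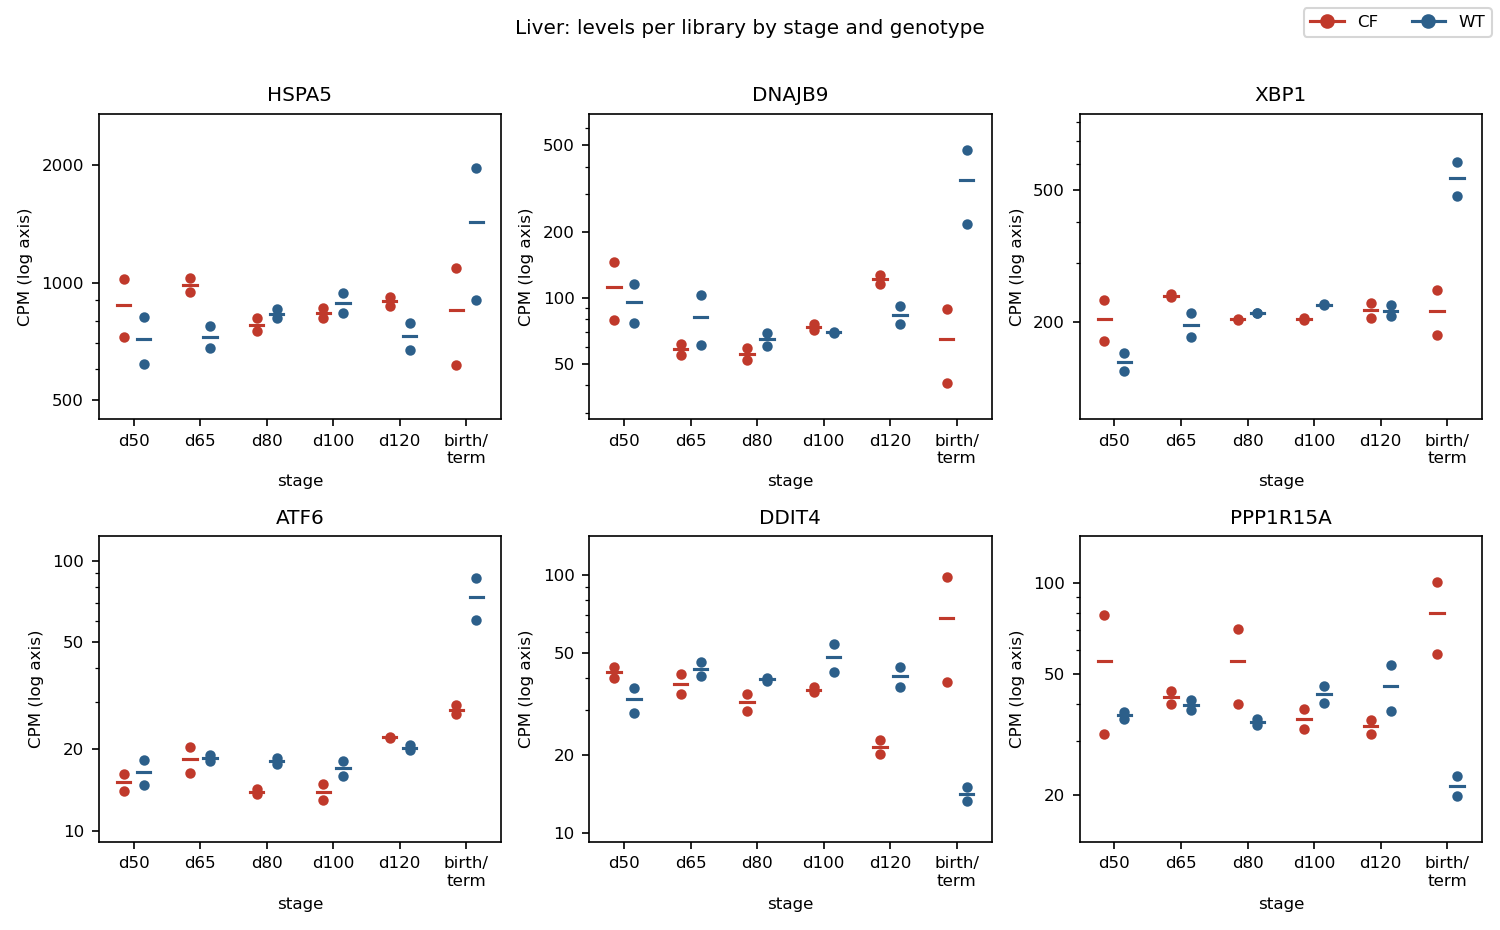
TMM-scaled CPM (log axis) of 6 response genes in every liver library by stage, with CF and WT libraries as separate points at each stage. For each of the 6 genes the 10 CF and the 10 WT fetal libraries overlap in range, although the CF d120 libraries of DDIT4 lie below every WT fetal library; at the end of gestation DNAJB9, XBP1 and ATF6 lie lower in the CF birth libraries than in the WT term libraries, and DDIT4 and PPP1R15A lie higher.

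Averaged over d50 to d120, none of the 37 genes differed between CF and WT liver by edgeR's quasi-likelihood test at an adjusted p of 0.05, where 2.54% of all genes tested did. The CF minus WT log2 change had a median of 0.0756 over the 37 genes and of -0.0468 over all genes tested, and for every one of the 37 the levels of the 10 CF livers overlapped those of the 10 WT livers. At an unadjusted p of 0.05 there were 3 genes. Counts at that threshold, here and below, stand without the share of all genes beside them and are not read as results. MANF, a secreted ER stress protein, ranged from 110 to 244 CPM in CF with a median of 140 CPM and from 80.5 to 146 CPM in WT with a median of 122 CPM, a log2 change of 0.36 ± 0.13 (SE, edgeR adjusted p = 0.176). DERL1, another derlin, had a change of 0.17 ± 0.07 (edgeR adjusted p = 0.245). DDIT4 (REDD1), an inhibitor of mTORC1 signalling that ATF4 induces, ranged from 20.3 to 44.1 CPM in CF and from 29.3 to 54.1 CPM in WT, a change of -0.29 ± 0.13 (edgeR adjusted p = 0.281). None of the 3 passed the adjustment over all genes. With the hepatocyte score as a covariate DDIT4 (-0.32) and PDIA4 did, as did 3.96% of all genes.

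**Figure D2:**
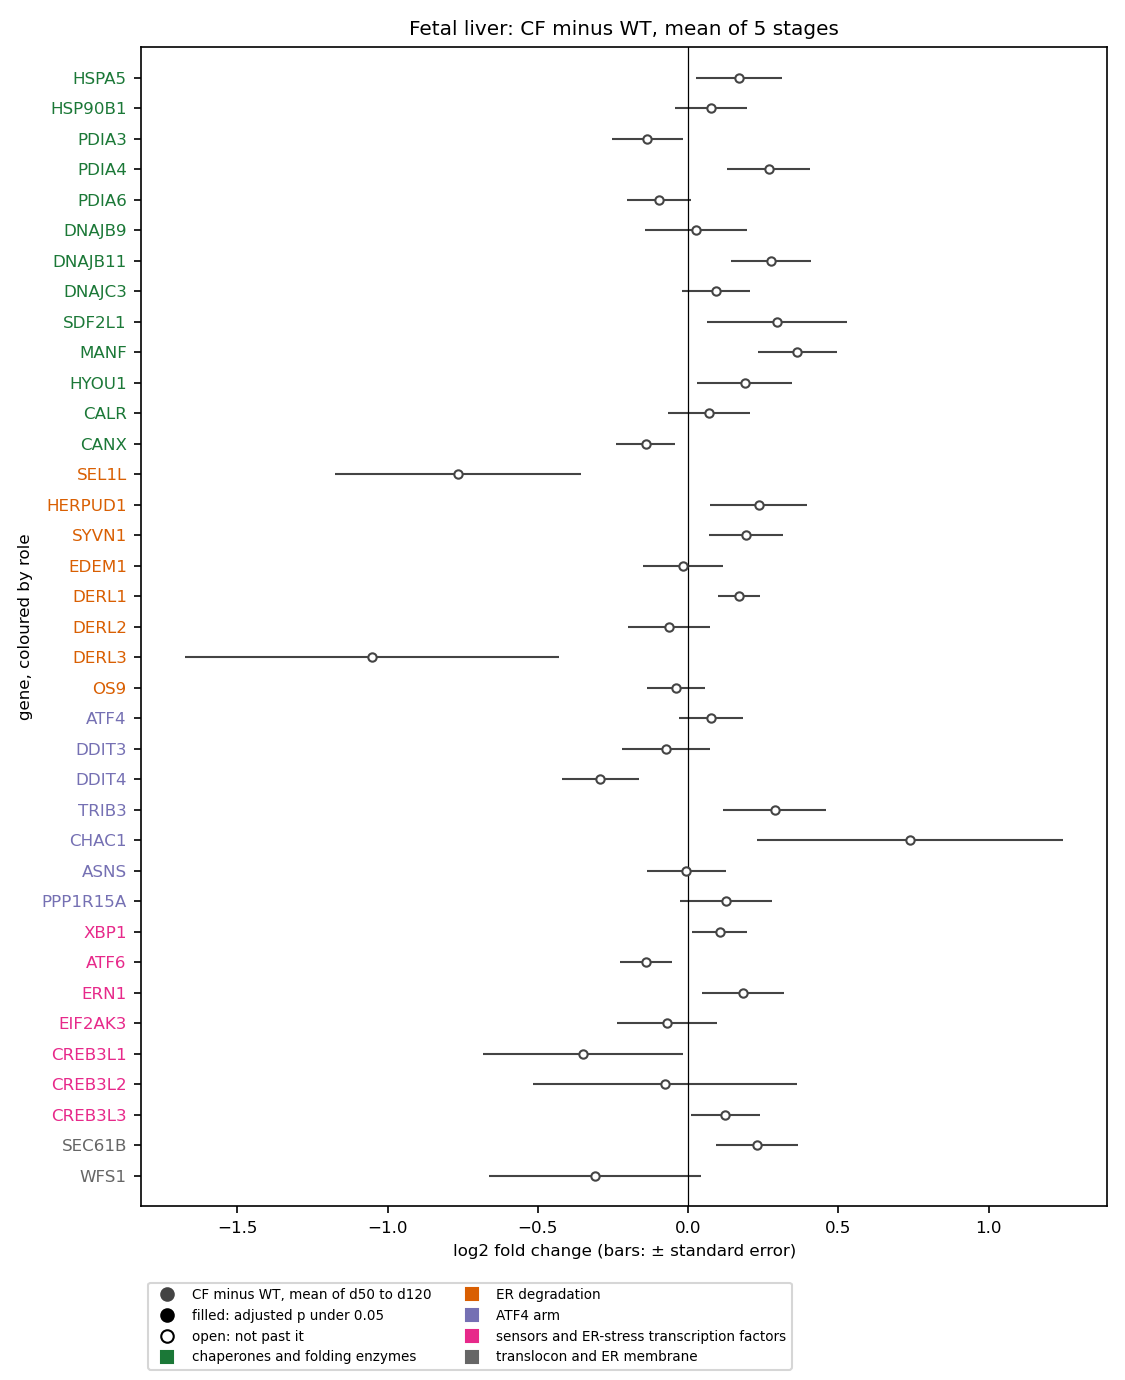
Log2 change, CF minus WT, averaged over the 5 fetal stages of liver, for each of the 37 genes by role (points, with SE as bars). All symbols are open because no gene passed an adjusted p of 0.05, and the widest bars belong to genes of low count such as DERL3.

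The sensors and regulators at the head of each arm were also without a call in fetal liver. ERN1 ranged from 11.0 to 45.1 CPM in CF and from 13.1 to 23.0 CPM in WT, EIF2AK3 from 4.49 to 16.8 CPM in CF and from 6.72 to 12.4 CPM in WT. ATF6 ranged from 13.0 to 22.3 CPM in CF and from 14.7 to 20.8 CPM in WT. ATF4 ranged from 262 to 759 CPM in CF and from 356 to 553 CPM in WT. DDIT3 (CHOP), the death-linked factor downstream of it, ranged from 9.79 to 20.5 CPM in CF and from 9.62 to 19.2 CPM in WT. For ERN1, EIF2AK3, ATF6 and ATF4 the CF range was wider than the WT range at both ends, and no test of that spread was made.

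Taken stage by stage, no response gene passed the adjusted threshold at d50, d65, d80, d100 or d120, where 0%, 1.65%, 0.0727%, 0.0424% and 0.0242% of all genes did. At an unadjusted p of 0.05 there were 3, 10, 1, 1 and 7 of the 37 genes at these stages. The share of all genes at that threshold is not given here. At d50 the smallest p belonged to CHAC1 (3.02 ± 1.12), TRIB3, a pseudokinase induced by ATF4 (1.01 ± 0.38), and HERPUD1, a partner of the HRD1 complex (0.89 ± 0.36), each with an edgeR adjusted p of 1. At d65 they were MANF (0.96 ± 0.30, edgeR adjusted p = 0.095), CREB3L1 (-2.55 ± 0.81, adjusted p = 0.103) and DNAJB11, a BiP co-chaperone (0.92 ± 0.30, adjusted p = 0.110). At d65 the DESeq2 Wald test called 6 of the 37 genes and 7.48% of all genes. Without WT d65 replicate 2 edgeR called 1 of the 37 and 4.67% of all genes. At d80 PDIA3 had the smallest p (-0.58 ± 0.26, adjusted p = 0.517) and at d100 CHAC1 did (-3.58 ± 1.26, adjusted p = 0.977). At d120 ERN1 did, with 45.1 and 35.3 CPM in CF livers and 16.5 and 21.2 CPM in WT livers (1.09 ± 0.31, edgeR adjusted p = 0.203), followed by DDIT4 (-0.91 ± 0.29, adjusted p = 0.242) and DERL1 (0.41 ± 0.16, adjusted p = 0.285).

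Along fetal age, 5 of the 37 response genes changed in CF liver on a line from d50 to d120, where 16.5% of all genes did (8.58% rising and 7.96% falling), and none did in WT liver, where 4.8% of all genes did. In CF the median over the 37 genes was -0.022 on the log2 scale from d50 to d120 and that over all genes 0.0635. In the ATF4 arm 3 genes fell. ATF4 had 608 and 506 CPM at d50, 691 and 759 CPM at d65, 580 and 531 CPM at d80, 497 and 490 CPM at d100, and 262 and 346 CPM at d120, a change of -0.96 ± 0.21 (edgeR adjusted p = 0.00678). The decline followed a peak at d65, and the lowest pair was that at d120. DDIT4 fell by 0.81 on the log2 scale (SE 0.26, edgeR adjusted p = 0.0424). CHAC1, with 0.550 and 4.70 CPM at d50 and 0.442 and 0.142 CPM at d120, fell by 4.41 (SE 1.09, edgeR adjusted p = 0.0120). All 7 genes of the ATF4 arm had a negative slope in CF liver, of which only the 3 above were called. The share of all genes with a negative slope is not given here. Of the 7 sensors and transcription factors 2 rose with age in CF, ERN1 by 0.94 ± 0.27 (adjusted p = 0.0266) and CREB3L1, a membrane-bound factor of secretory and matrix-producing cells, by 2.09 ± 0.67 (adjusted p = 0.0409).

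The slope did not differ between CF and WT liver for any response gene at an adjusted p of 0.05, where 0.00606% of all genes did. At an unadjusted p of 0.05 there were 7, again without the share of all genes. The smallest p belonged to ATF4 (-0.93 ± 0.30, edgeR adjusted p = 0.319), CHAC1 (-4.28 ± 1.42, adjusted p = 0.324) and DDIT4 (-1.09 ± 0.37, adjusted p = 0.324). In WT liver ATF4 had 356 and 545 CPM at d50 and 428 and 451 CPM at d120. The smallest p of the WT slope were those of SYVN1, which encodes the HRD1 ligase (0.64 ± 0.25, edgeR adjusted p = 0.162), XBP1 (0.47 ± 0.18, adjusted p = 0.171) and SDF2L1, a BiP partner (-1.10 ± 0.47, adjusted p = 0.213). The 5 calls of the CF slope depended on single libraries. Without CF d120 replicate 1 there were 0, without CF d120 replicate 2 there was 1, without CF d50 replicate 1 there were 2, and without CF d50 replicate 2, CF d100 replicate 2 or either CF d65 library there were 3. Without CF d50 replicate 2 and CF birth replicate 2, the latter not part of this slope, the call of CHAC1 was lost. In CF liver 7 of the 12 cholangiocyte markers rose with age and 2 of the 11 erythroid markers fell. The CF slope of all genes also went with gene length on the genome. In 5 equal groups from the shortest to the longest span its median was -0.178, -0.0302, 0.0311, 0.12 and 0.313. These groups held 0, 0, 0, 2 and 0 rising and 2, 0, 1, 0 and 0 falling calls of response genes. The part of these markers in the slopes was not tested, nor was that of span beyond a fit with an offset for it. In bulk RNA a lower number of cells of a type and less RNA per cell cannot be told apart.

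Of the liver comparisons, that of WT term with WT d120 held the most calls among the response genes. At term 22 of the 37 genes were higher and 2 lower than at d120, where 35.4% of all genes changed (16.9% higher and 18.5% lower), and the median log2 change was 1.17 over the 37 genes and 0.00309 over all genes. Of the 13 chaperones 9 rose and none fell. DNAJC3 (p58IPK), a co-chaperone that also inhibits PERK, had 364 and 195 CPM at term and 66.3 and 79.3 CPM at d120, a log2 change of 1.94 ± 0.26 (edgeR adjusted p = 1.91e-05). DNAJB9 (ERdj4), a BiP co-chaperone and XBP1 target, had 474 and 217 CPM at term and 76.1 and 92.1 CPM at d120 (2.04 ± 0.39, adjusted p = 0.000607). HSPA5 had 1959 and 905 CPM at term and 672 and 789 CPM at d120 (0.97 ± 0.32, adjusted p = 0.0262). Both term libraries lay above both d120 libraries for these chaperones, and term replicate 1 lay highest for each of the 3.

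In WT liver the degradation genes and sensors that passed were all higher at term. Of the 8 degradation genes 4 rose, among them DERL1 (1.91 ± 0.16, edgeR adjusted p = 1.14e-07), HERPUD1 (1.61 ± 0.37, adjusted p = 0.00245) and SEL1L, with 22.6 and 8.68 CPM at term and 1.97 and 1.01 CPM at d120 (3.40 ± 0.97, adjusted p = 0.0111). Of the 7 sensors and factors 5 rose: ATF6, with 86.2 and 60.4 CPM at term and 19.8 and 20.8 CPM at d120 (1.85 ± 0.20, adjusted p = 1.76e-06), XBP1 (1.33 ± 0.21, adjusted p = 9.02e-05), CREB3L3 (1.51 ± 0.26, adjusted p = 0.000224), ERN1 (1.22 ± 0.31, adjusted p = 0.00496) and EIF2AK3 (1.21 ± 0.38, adjusted p = 0.0178). CREB3L3 is the liver-enriched membrane-bound factor of lipid and acute phase genes. WFS1 (wolframin), an ER membrane protein, had the largest rise of the list (4.42 ± 0.87, adjusted p = 0.00068).

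Within the ATF4 arm 3 genes rose and 2 fell in WT liver. TRIB3 rose by 2.81 ± 0.41 (edgeR adjusted p = 3.87e-05), CHAC1 by 3.13 ± 1.15 (adjusted p = 0.0419) and ASNS, asparagine synthetase, by 1.01 ± 0.30 (adjusted p = 0.0136). DDIT4 had 15.1 and 13.3 CPM at term and 44.1 and 36.9 CPM at d120 (-1.51 ± 0.30, edgeR adjusted p = 0.000677). PPP1R15A (GADD34) had 19.7 and 23.1 CPM at term and 37.9 and 53.7 CPM at d120 (-1.10 ± 0.34, adjusted p = 0.0189). ATF4 itself had 400 and 374 CPM at term and 428 and 451 CPM at d120, a change that did not pass. There were 14 calls without WT term replicate 1 and 14 without WT d120 replicate 2, against 24 with all libraries, and 12 genes were called under all 9 alternatives, among them DNAJB9, DNAJC3, DERL1, XBP1, ATF6, DDIT4, TRIB3 and WFS1. Other lists moved over the same interval. All 11 erythroid markers fell (sums of 63.5 and 83.1 CPM at term and 70660 and 91040 CPM at d120), as did all 10 proliferation genes (234 and 77.4 CPM at term, 1095 and 708 CPM at d120). Of the 18 hepatocyte markers 7 rose and 3 fell, and of the 12 cholangiocyte markers 2 rose and 4 fell. Of the 10 macrophage markers 5 rose (1706 and 1867 CPM at term, 940 and 875 CPM at d120). Pancreatic acinar markers summed to 182 and 230 CPM at term and 4.28 and 4.84 CPM at d120, with 1 of 9 higher and 1 lower. Their part in the change of the response genes was not tested.

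In CF liver few of these genes passed between d120 and birth. Of the 37 genes 2 were higher at birth and none was lower, where 14.7% of all genes changed (6.34% higher and 8.39% lower), and the median log2 change was 0.0755 over the 37 genes and 0.042 over all genes. Both belonged to the ATF4 arm: DDIT4, with 38.7 and 98.2 CPM at birth and 23.0 and 20.3 CPM at d120 (1.66 ± 0.30, edgeR adjusted p = 0.000874), and PPP1R15A, with 58.2 and 101 CPM at birth and 31.9 and 35.4 CPM at d120 (1.25 ± 0.34, adjusted p = 0.0197). The 5 other genes of that arm had positive changes that did not pass, of which DDIT3 had the smallest p (0.93 ± 0.33, adjusted p = 0.0679). HSPA5 had 1087 and 617 CPM at birth and 919 and 873 CPM at d120. DNAJB9 had 89.0 and 41.2 CPM at birth and 116 and 128 CPM at d120. Birth replicate 2 lay below the 3 other libraries for every chaperone measured except DNAJB11. These levels depend on its TMM factor of 2.04, beside 1.475 in birth replicate 1 and 1.358 and 1.113 at d120. The number of calls was 1 without CF d120 replicate 1 or replicate 2 and 4 without CF birth replicate 1, and PPP1R15A lost its call without CF birth replicate 2. Beside these 2 genes, 7 of the 12 early response genes also rose, among them JUNB (2.97 ± 0.37, edgeR adjusted p = 2.71e-05) and DUSP1 (2.21 ± 0.43, adjusted p = 0.00171). The early response genes summed to 1809 and 2175 CPM at birth and 963 and 447 CPM at d120. All 11 erythroid markers (843 and 135 CPM at birth, 28800 and 37000 CPM at d120) and all 10 proliferation genes (84.9 and 85.2 CPM at birth, 694 and 548 CPM at d120) fell. Of the other lists 7 of the 12 cholangiocyte and 5 of the 9 smooth muscle markers rose. Of the hepatocyte markers 1 of the 18 rose and 3 fell (155100 and 41760 CPM at birth, 192500 and 287900 CPM at d120). The part of any of these in the changes of the response genes was not tested.

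**Figure D3:**
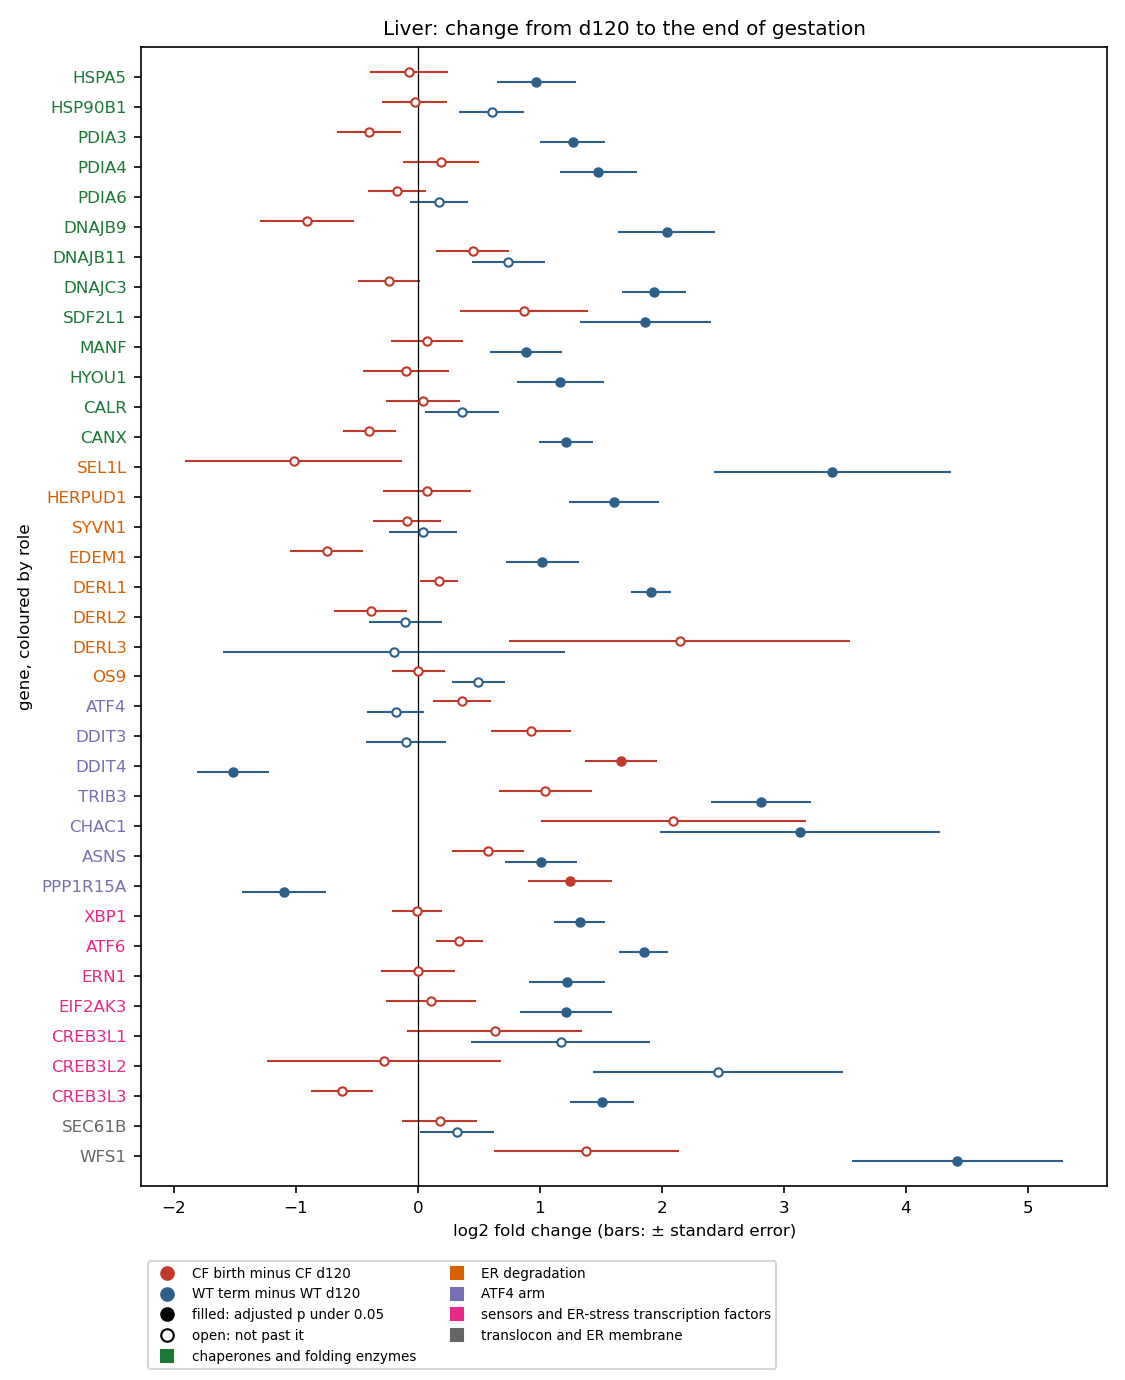
Log2 change with SE from d120 to the end of gestation for each of the 37 genes by role, in CF liver (birth minus d120) and in WT liver (term minus d120). Most WT points lie right of 0, with a median of 1.17, whereas the CF points scatter around 0, with a median of 0.0755; DDIT4 and PPP1R15A lie on opposite sides of 0 in the 2 genotypes.

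The change from d120 to the end of gestation itself differed between CF and WT for 15 of the 37 genes, where it differed for 21.1% of all genes (10.8% higher and 10.3% lower), with a median difference of -1.05 over the 37 genes and 0.0343 over all genes. In 13 the CF change was the lower and in 2, DDIT4 (3.18 ± 0.42, edgeR adjusted p = 9.85e-05) and PPP1R15A (2.34 ± 0.49, adjusted p = 0.00267), the higher. Among the 13 were 5 chaperones, led by DNAJB9 (-2.95 ± 0.55, adjusted p = 0.00117) and DNAJC3 (-2.18 ± 0.36, adjusted p = 0.000551), 4 degradation genes, led by SEL1L (-4.42 ± 1.31, adjusted p = 0.0227) and EDEM1, a mannosidase-like protein that selects misfolded glycoproteins (-1.77 ± 0.42, adjusted p = 0.0069), and XBP1, ATF6, CREB3L3 and TRIB3. This comparison was added after the data were seen. The difference also shifted with gene span over all genes. Its medians were 0.421, 0.138, -0.0329, -0.29 and -0.118 from the shortest to the longest of 5 groups. Both higher calls lay in the shortest group, and the lower calls numbered 2, 4, 3, 3 and 1. Under every one of 13 alternatives 11 of the 15 genes were called, all but PDIA4, SEL1L, HERPUD1 and TRIB3.

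At the end of gestation 16 of the 37 genes were lower and 2 higher in CF birth livers than in WT term livers, where 33.7% of all genes differed, 17% higher and 16.8% lower. The median log2 change was -0.71 over the 37 genes and 0.0352 over all genes. In 19 of the 37 genes both CF libraries lay below both WT libraries, in 4 both lay above, and in 14 they overlapped. Over all genes tested both lay below in 31.4%, above in 30.8% and overlapped in 37.8%. By role, 7 of 13 chaperones, 5 of 8 degradation genes and 3 of 7 sensors and factors were lower and none was higher, against 1 lower and 2 higher of the 7 genes of the ATF4 arm. The comparison shares the CF birth and WT term libraries with the stage comparisons above and is not independent of them. Levels and ranges depend on TMM factors, which were 1.475 and 2.04 in CF birth and 0.9882 and 0.9199 in WT term livers.

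DNAJB9 had 89.0 and 41.2 CPM in CF birth livers and 474 and 217 CPM in WT term livers (-2.41 ± 0.40, edgeR adjusted p = 0.000202). DNAJC3 had 94.0 and 68.3 CPM in CF and 364 and 195 CPM in WT (-1.78 ± 0.26, adjusted p = 6.39e-05). PDIA3 (ERp57), the isomerase that works with calnexin and calreticulin, had 495 and 323 CPM in CF and 1161 and 905 CPM in WT (-1.34 ± 0.27, adjusted p = 0.000935). CANX, calnexin, had 288 and 216 CPM in CF and 805 and 583 CPM in WT (-1.46 ± 0.22, adjusted p = 9.49e-05). In each of these the higher CF library lay below the lower WT library. SEL1L had 1.87 and 3.73 CPM in CF and 22.6 and 8.68 CPM in WT (-2.48 ± 0.93, adjusted p = 0.0465). DERL1 had 53.2 and 52.3 CPM in CF and 143 and 121 CPM in WT (-1.33 ± 0.16, adjusted p = 1.12e-05).

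Of the sensors and factors, ATF6 had 29.1 and 27.0 CPM in CF birth livers and 86.2 and 60.4 CPM in WT term livers (-1.39 ± 0.20, edgeR adjusted p = 4.96e-05), XBP1 had 249 and 183 CPM in CF and 607 and 478 CPM in WT (-1.33 ± 0.21, adjusted p = 0.000128), and CREB3L3 had 93.5 and 52.7 CPM in CF and 241 and 317 CPM in WT (-1.93 ± 0.26, adjusted p = 3.73e-05). The other 2 sensors did not pass: ERN1 had 31.9 and 48.6 CPM in CF and 51.9 and 36.2 CPM in WT, and EIF2AK3 had 16.4 and 14.3 CPM in CF and 29.5 and 13.1 CPM in WT. These tables count the XBP1 transcript as a whole, so splicing by IRE1 was not measured. HSPA5 had 1087 and 617 CPM in CF and 1959 and 905 CPM in WT (-0.75 ± 0.32, edgeR adjusted p = 0.0823), with overlapping libraries.

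The 2 higher genes were DDIT4, with 38.7 and 98.2 CPM in CF birth livers and 15.1 and 13.3 CPM in WT term livers (2.27 ± 0.30, edgeR adjusted p = 2.94e-05), and PPP1R15A, with 58.2 and 101 CPM in CF and 19.7 and 23.1 CPM in WT (1.89 ± 0.35, adjusted p = 0.000502). TRIB3 was lower, with 14.3 and 5.65 CPM in CF and 19.4 and 29.3 CPM in WT (-1.29 ± 0.38, adjusted p = 0.0146). ATF4 had 423 and 360 CPM in CF and 400 and 374 CPM in WT, 2 ranges of which one lay inside the other, and DDIT3 had 20.2 and 17.7 CPM in CF and 9.30 and 12.5 CPM in WT, a change that missed the threshold (0.80 ± 0.33, adjusted p = 0.0694). The ATF4 arm thus held calls in both directions, and ATF4 itself was not called.

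The number of calls at the end of gestation was 10 without CF birth replicate 2 (23.7% of all genes), 11 without WT term replicate 1 (20.5%) and 23 without CF birth replicate 1 (33%). Of the 18 genes 10 were called under all 9 alternatives: PDIA3, DNAJB9, DNAJC3, CANX, DERL1, XBP1, ATF6, CREB3L3, DDIT4 and PPP1R15A. Cell type markers moved as well. Hepatocyte markers were lower for 10 of 18, with a summed level of 155100 and 41760 CPM in CF birth livers and 228000 and 237000 CPM in WT term livers and none at 0. Cholangiocyte markers were higher for 8 and lower for 1 of 12 (sums of 625 to 873 CPM in CF and 514 to 558 CPM in WT, none at 0), and early response genes for 10 of 12 (1809 and 2175 CPM in CF, 213 and 266 CPM in WT). Markers of B and plasma cells, which are rich in ER chaperones, were higher for 4 of 8, with sums of 8.38 and 129 CPM in CF and 10.8 to 12.01 CPM in WT. Those of macrophages were lower for 5 of 10 (860 and 949 CPM in CF, 1706 and 1867 CPM in WT, none at 0). Pancreatic acinar markers, of which 1 of 9 was higher and 1 lower, summed to 69.2 and 28.2 CPM in CF and 182 and 230 CPM in WT, with 1 to 8 of 11 at 0 in CF and 1 to 6 in WT. Erythroid markers were higher for 9 of 11 (135 to 843 CPM in CF, 63.5 to 83.1 CPM in WT). Smooth muscle markers were higher for 4 of 9, with 259 to 775 CPM in CF and 294 to 410 CPM in WT. Proliferation genes were lower for 4 of 10, with 84.9 to 85.2 CPM in CF and 77.4 to 234 CPM in WT. The part of these cells in the values of the response genes was not tested.

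The neighbouring parts of the secretory pathway, none of them members, had few calls in the other direction. Over all genes tested 17% were higher and 16.8% lower in CF birth than in WT term livers. In CF birth against WT term livers 12 of 20 genes of translocation and ER export were lower and none higher (median log2 change -0.846), among them SPCS2 of the signal peptidase (-1.48 ± 0.21, edgeR adjusted p = 4.91e-05), SRP54 of the signal recognition particle (-1.48 ± 0.24, adjusted p = 0.000165) and SEC63 of the translocon (-1.32 ± 0.23, adjusted p = 0.000321). Of 22 further folding and redox genes 11 were lower and none higher (median -0.697), led by the oxidase ERO1B (-2.02 ± 0.41, adjusted p = 0.00116) and P4HB (-1.47 ± 0.32, adjusted p = 0.00188), and 10 of 17 further degradation genes were lower and none higher (median -0.666), led by RNF139 (-1.05 ± 0.19, adjusted p = 0.000364). Among 24 further amino acid and ATF4 target genes 7 were lower and 1 higher (median -0.52). The lower ones included PCK2 (-1.46 ± 0.27, adjusted p = 0.000476) and the serine synthesis enzymes PSPH and PHGDH, and the higher one was ATF3 (2.30 ± 0.49, adjusted p = 0.00155), which is also on the early response list. Of 17 genes of eIF2 alpha kinases and translation control 7 were lower and 1, the IRE1 adaptor TRAF2 (1.46 ± 0.26, adjusted p = 0.000332), was higher.

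In WT liver from d120 to term the same lists rose for 10 of 20, 9 of 22, 6 of 17, 10 of 24 and 5 of 17 genes, in the order above, and fell for 0, 1, 1, 4 and 4. In CF liver from d120 to birth they rose for 0, 0, 0, 6 and 0 genes and fell for 2, 1, 1, 3 and 2. Over all genes tested 16.9% rose and 18.5% fell in WT, and 6.34% rose and 8.39% fell in CF. The further ATF4 targets were thus the list with the most rises in CF liver, among them EIF4EBP1 (1.54 ± 0.26, edgeR adjusted p = 0.000512), CTH (1.42 ± 0.29, adjusted p = 0.00257) and PCK2 (1.36 ± 0.27, adjusted p = 0.00195).

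Across the 12 gallbladder libraries, which unlike the 20 fetal livers include birth and hold both genotypes at d100 and d120 alone, 22 of the 37 genes varied by more than 4 times and 2 by less than 2 times, against 72.7% and 5.5% of all genes tested. The median coefficient of variation was 47.8% over the 37 genes and 62.5% over all genes, and all 7 sensors and factors varied by more than 4 times. Averaged over d100 and d120, the stages with both genotypes, 6 of the 37 genes were higher and 16 lower in CF than in WT gallbladder, where 43.7% of all genes differed (23.6% higher and 20.1% lower). The median log2 change was -0.615 over the 37 genes and 0.157 over all genes. In 16 of the 37 genes all 4 CF libraries lay below all 4 WT libraries, in 8 all lay above, and in 13 they overlapped. Over all genes tested all lay below in 21.5%, above in 27.5% and overlapped in 51%.

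Of the 13 chaperones 8 were lower and none higher. SDF2L1 had 6.11, 4.32, 4.86 and 7.86 CPM in CF and 43.9, 31.6, 41.6 and 34.4 CPM in WT (-2.72 ± 0.48, edgeR adjusted p = 0.00587). MANF had 57.7, 39.7, 44.8 and 63.9 CPM in CF and 208, 196, 141 and 149 CPM in WT (-1.73 ± 0.42, adjusted p = 0.0138). CALR, the calcium-binding lectin chaperone calreticulin, had 999, 789, 782 and 713 CPM in CF and 1887 to 2143 CPM in the 4 WT libraries (-1.31 ± 0.31, adjusted p = 0.0134). For all 3 the genotypes were fully separated, with gaps wider than the spread within either. HSPA5 had 626, 485, 537 and 524 CPM in CF and 1272, 1350, 543 and 835 CPM in WT (-0.81 ± 0.28, adjusted p = 0.0433), where WT d120 replicate 1 lay within the CF range.

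Degradation genes split, with 4 lower and 1 higher of 8. DERL2 had 42.0, 34.1, 38.0 and 49.5 CPM in CF and 172, 154, 279 and 160 CPM in WT (-2.21 ± 0.36, edgeR adjusted p = 0.00491), and its paralog DERL3, at 0.209 to 0.425 CPM in CF and 0.584 to 1.52 CPM in WT, was lower too (-1.88 ± 0.56, adjusted p = 0.0267), as were HERPUD1 (-0.98 ± 0.21, adjusted p = 0.00915) and SYVN1 (-0.74 ± 0.19, adjusted p = 0.0168). SEL1L, the partner of SYVN1, was the higher one, with 15.6, 43.0, 34.3 and 32.1 CPM in CF and 2.30, 1.93, 0.864 and 0.637 CPM in WT (4.63 ± 0.91, adjusted p = 0.00759). The ligase and its adaptor thus lay on opposite sides.

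Of the 7 genes of the ATF4 arm 3 were lower and none was higher. ATF4 had 341, 255, 252 and 361 CPM in CF and 700, 692, 546 and 626 CPM in WT (-1.08 ± 0.36, edgeR adjusted p = 0.0395), TRIB3 had 1.43, 1.70, 0.629 and 2.99 CPM in CF and 5.97, 5.90, 4.09 and 6.96 CPM in WT (-1.77 ± 0.56, adjusted p = 0.0329), and CHAC1, at 0.122 to 0.277 CPM in CF and 0.627 to 2.18 CPM in WT, changed by -2.40 ± 0.66 (adjusted p = 0.0208). DDIT3, at 14.0 to 21.6 CPM in CF and 17.01 to 34.5 CPM in WT, and DDIT4 and PPP1R15A did not pass. SEC61B, a subunit of the translocon, was lower (-1.28 ± 0.45, adjusted p = 0.0449).

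Of the 7 sensors and transcription factors 4 were higher in CF gallbladder and none was lower. CREB3L2, a membrane-bound factor that drives the machinery for large secretory cargo, had 51.6, 110, 79.3 and 71.0 CPM in CF and 3.76, 5.40, 1.501 and 2.02 CPM in WT (4.77 ± 0.69, edgeR adjusted p = 0.00363). CREB3L1, its close relative, had 73.5, 92.4, 123 and 55.1 CPM in CF and 7.49, 9.72, 0.500 and 4.70 CPM in WT (4.17 ± 0.81, adjusted p = 0.00759). For both the lowest CF value lay above the highest WT value. ERN1 had 31.4, 49.7, 58.2 and 54.3 CPM in CF and 24.7, 25.0, 7.503 and 14.0 CPM in WT (1.55 ± 0.50, adjusted p = 0.0345). EIF2AK3 had 55.6, 66.7, 60.6 and 33.0 CPM in CF and 24.1, 27.1, 17.6 and 24.7 CPM in WT (1.20 ± 0.33, adjusted p = 0.0197). ATF6 (0.85 ± 0.35, adjusted p = 0.0733) and XBP1, at 214 to 404 CPM in CF and 288 to 409 CPM in WT, did not pass. WFS1 was higher as well, at 10.2 to 13.4 CPM in CF and 0.747 to 3.15 CPM in WT (2.82 ± 0.49, adjusted p = 0.00552).

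**Figure D4:**
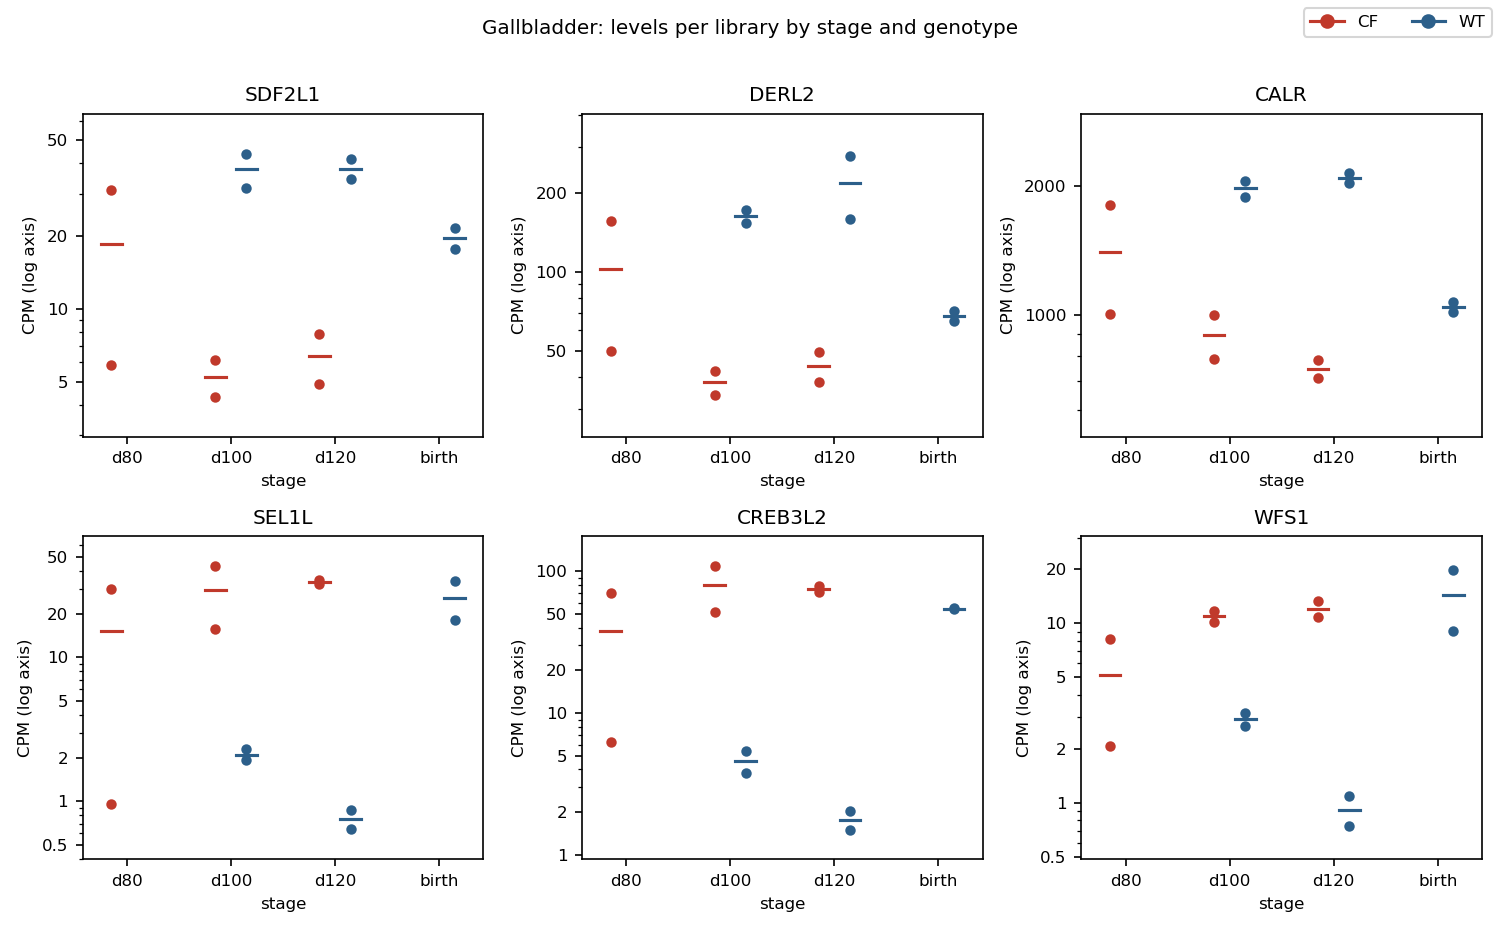
TMM-scaled CPM (log axis) of 6 response genes in every gallbladder library, CF (d80, d100, d120) and WT (d100, d120, birth). At d100 and d120 SDF2L1, DERL2 and CALR lie lower and SEL1L, CREB3L2 and WFS1 higher in CF; the WT birth libraries lie near the CF levels of SEL1L, CREB3L2 and WFS1, and CF d80 replicate 1 lies near the WT fetal levels.

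At d100 alone 5 genes were lower and 1 higher in CF, where 6.53% of all genes differed (2.28% higher and 4.25% lower): HERPUD1 (-1.56 ± 0.30, edgeR adjusted p = 0.0264), DNAJB9 (-1.57 ± 0.35, adjusted p = 0.0387), SDF2L1 (-2.85 ± 0.68, adjusted p = 0.0456), DERL2 (-2.10 ± 0.51, adjusted p = 0.0466) and SYVN1 (-1.09 ± 0.27, adjusted p = 0.0492) were lower and CREB3L2 (4.14 ± 0.94, adjusted p = 0.0406) was higher. At d120 alone 5 were lower and 6 higher, where 22.7% of all genes differed (13.2% higher and 9.45% lower). SDF2L1, DERL2, CALR, DNAJB11 and PDIA4, a protein disulfide isomerase, were lower, and CREB3L2 (5.41 ± 1.01, adjusted p = 0.0169), SEL1L (5.48 ± 1.34, adjusted p = 0.0286), CREB3L1 (5.07 ± 1.20, adjusted p = 0.0267), WFS1 (3.73 ± 0.72, adjusted p = 0.0182), ERN1 (2.38 ± 0.73, adjusted p = 0.0458) and EDEM1 (1.39 ± 0.43, adjusted p = 0.0478) were higher. With 1 of the 4 libraries of a stage left out, every call at d100 was lost in each case. At d120 none was left without WT d120 replicate 1 or CF d120 replicate 1, 1 without CF d120 replicate 2 and 7 without WT d120 replicate 2. Without both CF d80 libraries the calls were 18 of 37 at d100, where 38.1% of all genes were then called, and 20 of 37 at d120, where 47.1% were.

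Other cells and properties of the libraries moved with the genotype in gallbladder. The summed level of 18 hepatocyte markers was 5300, 4025, 1942 and 73510 CPM in CF at d100 and d120 and 256800, 254400, 165300 and 99770 CPM in WT, none of them at 0. Relative to the median of WT fetal liver these sums were 1.99%, 1.51%, 0.728% and 27.6% in CF and 96.3%, 95.4%, 62% and 37.4% in WT. TMM factors were fitted to each tissue alone, so these percentages are not on a common scale with liver. The factors were 0.6966 and 0.7255 in WT d100 gallbladder and 0.8154 to 1.213 in WT fetal liver. At d120 they were 1.281 and 1.184 in CF and 0.6794 and 0.8363 in WT gallbladder. The CPM thus put CF lower and WT higher than shares of all counts would. Among the gallbladder libraries the 2 WT d100 libraries had the highest sums, and 7 of the 18 markers were lower in CF. Cholangiocyte markers, 4 of 12 higher and 2 lower in CF, summed to 2129 to 4796 CPM in CF and 1873 to 4521 CPM in WT, none at 0. Erythroid markers were lower for 7 of 10, with sums of 184 to 1526 CPM in CF and 1652 to 5059 CPM in WT. Smooth muscle markers were lower for 3 of 9 (517 to 2165 CPM in CF, 1382 to 4714 CPM in WT). Proliferation genes were lower for 6 of 10 (333 to 648 CPM in CF, 305 to 1265 CPM in WT) and B and plasma cell markers were for 2 of 7 (6.03 to 9.69 CPM in CF, 8.23 to 13.9 CPM in WT). Of the 9 macrophage markers 1 was higher (336 to 1209 CPM in CF, 794 to 1053 CPM in WT). The part of these cells in the values of the response genes was not tested beyond the covariate fits given next. With the hepatocyte score as a covariate 6 response genes were called, against 22 without it. Over all genes 10.4% were then called, against 43.7% without it. The 6 were DNAJB11, SEL1L, DERL2, CREB3L2 and WFS1, in the same direction as without it, and CREB3L3, which was not called without it. With the early response score as a covariate none was called, and the number of calls over all genes was 284, against 8183 without it. The early response sum was 625 to 1217 CPM in CF and 600 to 1281 CPM in WT, with 5 of its 12 genes called higher in CF and 2 called lower.

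The direction of the change also went with gene length on the genome. Genes were split in 5 equal groups by their span in the reference gene table, available for 84.7% of them, and the median CF minus WT change of all genes was -0.864, -0.278, 0.0687, 0.464 and 0.949 from the shortest to the longest group. The 11, 7, 8, 6 and 5 response genes of these groups included 6, 6, 4, 0 and 0 lower and 0, 0, 0, 3 and 3 higher calls. All lower genes therefore came from the 3 shorter groups and all higher ones from the 2 longer groups. A fit with an offset that removes the trend over span called 39.4% of all genes, against 43.7% without it. CREB3L2 (3.93), SEL1L (4.03), CREB3L1 (3.88), WFS1 (2.45), DERL2 (-1.93), SDF2L1 (-1.76) and DNAJB11 were among those that kept their calls. HSPA5, CALR, SYVN1, DERL3, CHAC1, ERN1, EIF2AK3 and SEC61B were among those that lost theirs. The other called response genes, all lower in CF, are not listed here. RNA quality values were not used here.

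**Figure D5:**
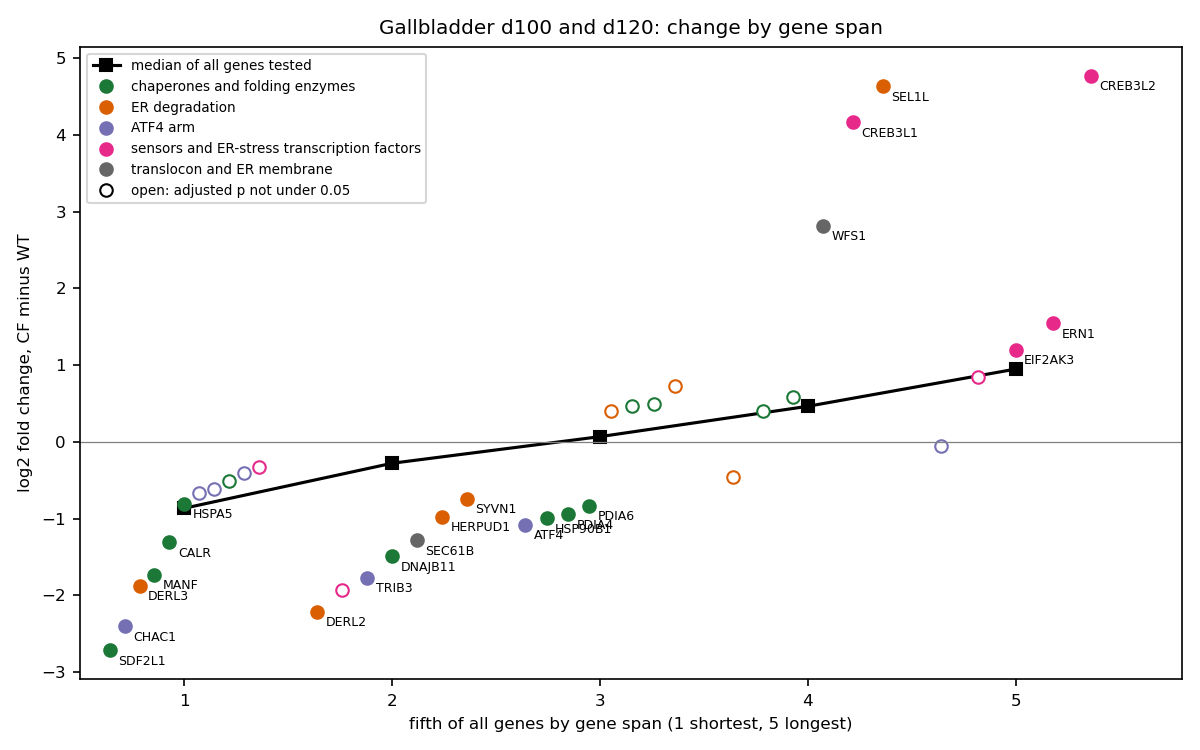
Log2 change, CF minus WT, averaged over gallbladder d100 and d120, in 5 equal groups of genes by genomic span from shortest to longest, with the median of all genes and the response genes as points. The median of all genes runs from -0.864 to 0.949, and the response genes called lower lie in the 3 shorter groups.

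Without 1 library the 22 calls of the gallbladder mean became 7 to 18. There were 8 and 10 without WT d100 replicate 1 and replicate 2, 7 and 11 without one or the other CF d100 library, and 10 and 14 without CF d120 replicate 1 and replicate 2. Each of these fits also called fewer of all genes than the 43.7% called with all libraries. No gene was called under all 18 alternatives, since the early response score removed every call. DNAJB11, SEL1L, DERL2, CREB3L2 and WFS1 were called under all the others.

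Beyond the members, the pathway's other genes held calls in both directions in CF gallbladder at d100 and d120. Over all genes tested 23.6% were higher and 20.1% lower. Of 22 further folding and redox genes 4 were higher and 8 lower, of 20 of translocation and export 3 were higher and 8 lower, of 16 of degradation 2 were higher and 3 lower, of 24 ATF4 targets 6 were higher and 8 lower, and of 17 of translation control 3 were higher and 6 lower. SEC24D, a coat protein of COPII vesicles, was higher (2.14 ± 0.21, edgeR adjusted p = 0.00136), and ATF5, a stress factor translated in the manner of ATF4, was lower (-1.97 ± 0.20, adjusted p = 0.00156).

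WT gallbladder at birth differed from WT at d100 and d120 in 11 of the 37 genes, 10 higher and 1 lower, where 27.1% of all genes differed (16% higher and 11.1% lower). The median log2 change was 0.0111 over the 37 genes and 0.133 over all genes. Of the 7 sensors and factors 5 were higher. CREB3L1 had 154 and 156 CPM at birth (5.02 ± 0.90, edgeR adjusted p = 0.0128), CREB3L2 had 55.0 and 54.4 CPM (4.26 ± 0.72, adjusted p = 0.0115), and ERN1 (2.08 ± 0.57, adjusted p = 0.0325), EIF2AK3 (1.57 ± 0.38, adjusted p = 0.0239) and ATF6 (1.53 ± 0.41, adjusted p = 0.0298) were higher with them. SEL1L had 33.8 and 18.1 CPM at birth (4.37 ± 0.96, adjusted p = 0.0194), and EDEM1, DERL1, DNAJC3 and WFS1 were also higher, while DERL2, with 71.2 and 64.9 CPM at birth, was lower (-1.48 ± 0.46, adjusted p = 0.0429). For all 10 higher genes both birth libraries lay above all 4 fetal WT libraries. The share of all genes separated in this way was not computed. This comparison shares its WT d100 and d120 libraries with the CF minus WT comparison. The hepatocyte sum was 69500 and 25500 CPM at birth and 99770 to 256800 CPM at d100 and d120. At birth 9 of the 10 erythroid markers were lower (192 to 239 CPM at birth, 1652 to 5059 CPM at d100 and d120), and 8 of the 10 proliferation genes were lower (137 to 222 CPM at birth, 305 to 1265 CPM at d100 and d120). Genomic span moved with this change as well. The median over all genes was -0.676, -0.145, 0.109, 0.467 and 0.638 from the shortest to the longest of the 5 groups. Their 11, 7, 8, 6 and 5 response genes held 0, 0, 2, 4 and 4 higher calls and 0, 1, 0, 0 and 0 lower calls. The part of cells and span in the change was not tested. Leaving out either WT d100 library or either birth library left 0 calls (0.21% to 0.947% of all genes), and leaving out WT d120 replicate 1 left 4 (9.86%).

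Within CF gallbladder the d100 and d120 libraries did not differ from d80 in any response gene at an adjusted p of 0.05, where 0.00534% of all genes did. At an unadjusted p of 0.05 there were 7 of the 37, again without the share of all genes. The smallest p were those of DNAJB11 (-1.20 ± 0.32, edgeR adjusted p = 0.208), DERL2 (-1.34 ± 0.41, adjusted p = 0.208) and MANF (-1.56 ± 0.48, adjusted p = 0.208). The 2 CF d80 libraries differed widely from each other. MANF had 249 CPM in replicate 1 and 53.5 CPM in replicate 2, SEL1L had 0.957 and 29.6 CPM, CREB3L2 had 6.25 and 70.1 CPM, and SDF2L1 had 31.2 and 5.88 CPM. Replicate 1 lay within or near the WT fetal range and replicate 2 near the CF range of d100 and d120 for these 4 genes, while the hepatocyte sum was low in both, at 7107 and 5457 CPM. The TMM factor was 0.763 in replicate 1 and 1.32 in replicate 2, beside 1.18 to 1.28 in the CF and 0.679 to 0.836 in the WT libraries of d100 and d120. Without CF d80 replicate 2 there were 19 calls among the 37 genes and 34.3% of all genes were called. The DESeq2 Wald test on all libraries called 1 of the 37 and 4.47% of all genes.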

How the data were processed

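Bulk RNA sequencing of sheep liver (24 libraries) and gallbladder (12 libraries) was used. The deposited tables hold estimated counts per gene, per the file headers and the column totals; the name of the liver table also mentions TPM. The submitters' processing notes name limma, DESeq2, edgeR, Salmon (versions 1.9.0 and 1.10.1) and STAR 2.7.9a but not what each did. The build of the genome is not given in the sources used here, and positions and sequences are left out.

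Estimated counts were rounded, and each tissue was fitted alone in edgeR 4.0.16 (R 4.3.3) with filterByExpr, TMM factors and a quasi-likelihood model with 1 mean per genotype and stage. Tests were two-sided, with Benjamini-Hochberg adjustment over all genes tested and a threshold of 0.05. Standard errors come from the log2 change and its F statistic. Genotype means average the stages that hold both genotypes, without the end of gestation, and age slopes are linear contrasts over the fetal stages. There were 17 planned contrasts and 1 added after the data were seen, the CF minus WT difference in the change from d120 to the end of gestation. For 2 CF d100 gallbladder columns the labels give the group and not the replicate. Settings were tested on simulated data, in which 100 genes changed by a log2 of 1 and 100 by 2. Right calls were 86% and 99% for the fetal liver mean and 10% and 73% for liver at the end of gestation. They were 1% and 28% for the gallbladder mean and 0% and 0% at gallbladder d120. Only these genes were changed, so shares in the real data may differ. A gene without a call is thus not shown to be unchanged.

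Members and lists were chosen with earlier results of these data known. Named are all members past the threshold or, beyond 12, the 6 largest changes in each direction; where fewer than 3 passed, the 3 smallest p; and 7 sensors and regulators. Other genes of the wider lists are examples with the smallest p, and further members were named after their values were seen. Alternatives were DESeq2 1.42.0 size factors and Wald test, no filter, each library left out, an additive model, 1 unit per donor-number stem, hepatocyte or early response score as covariate, and no CF d80 gallbladder; added later were an offset for genomic span, and fits without libraries of fewest genes (gallbladder) or high early response (liver).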

Additional observations from a re-analysis of the deposited data

Results flagged for a closer look

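The log2 change of liver from d120 to the end of gestation differed between CF and WT, by edgeR's test of that difference (adjusted p under 0.05), in 15 genes. Against WT, the change in CF was lower in the chaperones and folding enzymes PDIA3 (-1.67), PDIA4 (-1.29), DNAJB9 (-2.95), DNAJC3 (-2.18) and CANX (-1.61), in the degradation genes SEL1L (-4.42), HERPUD1 (-1.53), EDEM1 (-1.77) and DERL1 (-1.74), in the factors XBP1 (-1.34), ATF6 (-1.51) and CREB3L3 (-2.13), and in TRIB3 (-1.77). It was higher in DDIT4 (3.18) and PPP1R15A (2.34). The WT term libraries are numbered apart from the rest of the series, and CF birth replicate 2 held the fewest counts of the liver libraries.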

How the results depend on the processing

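Among 1748 alternative values of 142 gene results, 1348 kept their status, 386 lost a call and 14 gained one. None reversed its direction. These results were picked as calls or smallest p of the main fit, and most libraries were shared, so a reversal was unlikely beforehand. With 1 library left out, the number of response genes called ranged from 0 to 1 at liver d65, from 10 to 23 at the end of gestation, from 0 to 5 for the CF age slope, from 14 to 21 for WT term against d120, from 1 to 4 for CF birth against d120, from 11 to 19 for the difference between those changes, from 7 to 18 for the gallbladder mean, from 0 to 0 at gallbladder d100, from 0 to 7 at d120, from 0 to 12 for WT birth against fetal gallbladder and from 0 to 19 for later against d80 CF gallbladder; it stayed at 0 for the other liver contrasts. In each such fit of the gallbladder mean the calls over all genes fell as well. Shares of all genes called are given in brackets below. The DESeq2 Wald test called 6 at liver d65 (7.48%), 1 for the WT age slope (9.15%) and 1 for the slope difference (1.08%). It called 4 for CF birth against d120 (20.1%) and 17 at gallbladder d100 (28%). It also called 19 for WT birth gallbladder (43.6%) and 1 for CF gallbladder against d80 (4.47%). The hepatocyte covariate gave 2 for the fetal liver mean. For the gallbladder mean it gave 6, the early response covariate 0 and 1 unit per donor-number stem 9. The span offset gave 1 for CF birth against d120 (15.7%) and 3 at gallbladder d100 (5.12%). Without both CF d80 libraries there were 18 at gallbladder d100 (38.1%), 20 at d120 (47.1%) and 24 for WT birth (50.3%). With all libraries these shares were 6.53%, 22.7% and 27.1%. Without the libraries of fewest genes more response genes were called in the same contrasts, and so were more of all genes. Without replicate 2 of CF d50 and CF birth liver, calls moved at d65, the end of gestation and the WT slope. CF birth replicate 1 stayed in. The early response sum was 1809 to 2175 CPM in the 2 CF birth livers and 213 to 266 CPM in WT term livers. The causes were not tested; covariates and fewer libraries also leave fewer degrees of freedom. DESeq2 size factors moved the median of all genes at gallbladder d100 to 0.13 against 0.0188, and the span offset moved that of the gallbladder mean to 0.0149 against 0.157. No paired analysis was possible because replicate numbers follow the order of deposition and pair no libraries. Pairs of libraries limit the precision of every single-stage value, and genes such as DERL3 and CHAC1 rest on few counts.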
